A study of Mus musculus with 12 samples.

Results

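The genes encoding the proteins of the cytosolic ribosome were read in mouse CD4 T cells with and without Ikaros, at baseline and after activation. Members were taken by symbol: Rpl or Rps followed by a number and at most 1 letter, plus the P stalk genes Rplp0, Rplp1 and Rplp2 and the small subunit gene Rpsa. Pseudogenes, genes with an l or -like suffix and the Rps6k kinases were left out. The rule found 51 genes among the 23185 with a named probe set, 32 of the large and 19 of the small ribosomal subunit. They lie on 18 chromosomes, with 7 on chromosome 7, 6 on chromosome 9 and 2 on the X chromosome. Rplp2, Rps6, Rpl11, Rps4x, Rpl39, Rpl13a, Rpl26 and Rpl38 had no listed probe set and were not analysed here.

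Total RNA of CD4 T cells isolated from spleen was hybridised to 12 Mouse Gene 2.0 ST arrays, 3 for each of 4 groups. Activated Cre+ cells were Lck-Cre+;Ikzf-/- cells stimulated in culture for 24 hours by anti-CD3 fixed to the plate and anti-CD28 in solution, and activated Cre- cells were Lck-Cre-;Ikzf+/+ cells cultured in the same way. The baseline Cre+ and baseline Cre- cells had the same genotypes and were taken at 0 hours. Lck drives Cre in the T lineage, so the deletion of Ikzf1, which encodes the zinc finger factor Ikaros, was aimed at T cells and not at other splenic cells. The study holds no group with Cre and intact Ikaros and no group cultured for 24 hours without stimulation. The deletion and Cre itself, and likewise activation and culture, therefore cannot be told apart. The labels state neither the ages of the mice nor whether separate animals gave the arrays of a group. The p-values therefore measure only the spread between these arrays, which may be technical.

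Each subunit of the ribosome is built in the nucleolus from ribosomal RNA and a set of proteins that are mostly present once per ribosome. In mammals most messenger RNAs of these proteins start with a run of pyrimidines, the 5′ terminal oligopyrimidine motif, through which mTOR signalling and the RNA-binding protein Larp1 control their translation. A resting T cell makes little protein, and stimulation through the T cell receptor and CD28 is followed by growth and ribosome production before the cells divide.

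The count took in 49 promoter windows of RefSeq (GRCm38.p6) at start sites of 39 members. A run of at least 8 pyrimidines lay between 35 bases before and 15 bases after the start in 44.9% of these windows, against 20.3% of the 21141 windows of all genes tested. The letters CCGGAAG, read on both strands over the whole window of 300 bases and known as a binding motif of ETS factors, occurred in 30.6% against 11.5%. The letters TGGGAA, the core of the Ikaros binding motif, occurred in 18.4% against 24.4%. Of the members that passed as higher after activation in both genotypes, 8 had counted windows, and 5 of their 10 windows held a pyrimidine run. In the other members 43.6% of 39 windows did. CCGGAAG was in 6 of the 10 windows of the risen members, against 23.1% of the 39 others, and TGGGAA in 1 of 10, against 20.5%. These splits were not tested. Rpl17 and Rpl29, which rose in both genotypes, had no counted window, which does not show that they lack an annotated start. The windows of members and of all genes were not matched by chromosome, so their shares may rest on unlike sets. The sequences show the start sites of 3 risen members with a run, of 2 without one, and of Rpl4, a bright member that did not pass. Capitals mark the pyrimidine run, each sequence is read 5′ to 3′ on the gene's strand, and the annotated start is base 36 of 50.
Rpl34, chr3:130730323-130730372, minus strand: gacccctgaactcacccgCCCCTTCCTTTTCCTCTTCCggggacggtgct
Rpl15, chr14:18270972-18271021, minus strand: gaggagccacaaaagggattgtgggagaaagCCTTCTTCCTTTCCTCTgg
Rpl14, chr9:120571482-120571531, plus strand: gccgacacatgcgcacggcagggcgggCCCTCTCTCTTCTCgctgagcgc
Rpl37, chr15:5116578-5116627, plus strand: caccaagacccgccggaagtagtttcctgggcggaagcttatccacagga
Rpl27, chr11:101442210-101442259, plus strand: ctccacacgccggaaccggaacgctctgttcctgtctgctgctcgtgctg
Rpl4, chr9:64173352-64173401, plus strand: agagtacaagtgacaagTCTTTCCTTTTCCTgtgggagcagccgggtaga
The runs of Rpl34, Rpl15 and Rpl14 were 20, 17 and 14 bases long and that of Rpl4 was 14, while the longest runs of Rpl37 and Rpl27 in these windows had 6 and 5 bases. The runs of Rpl34, Rpl15 and Rpl14 span the annotated start, while that of Rpl4 ends before it and so lies outside the annotated messenger RNA. The window reaches upstream of the start, so the shares above do not count oligopyrimidine motifs of messenger RNAs. Members without a run in the window, such as Rpl37 and Rpl27, rose as well.

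The readings of the 51 members spanned nearly the whole scale of the arrays. The deposited values are log2 intensities, and the mean over the 12 arrays ran from 1.58 for Rpl10 to 11.62 for Rplp1, with a median of 5.68 against 4.17 for all genes. In 12 members the mean lay below the median of every array (the array medians ran from 4.07 to 4.21), in 32 it lay between that level and 8.24, and in 7 it was 9.74 or more. The bright 7 were Rplp1, Rpl4, Rpl22, Rps9, Rpl8, Rps21 and Rpl29. Levels of different probe sets are not comparable as RNA amounts, and ribosomal protein genes have many processed pseudogenes of near-identical sequence, so single readings are uncertain. Whether the dim probe sets lie above background was not tested. The median SD within a group was 0.276 for the members and 0.183 for all genes, so differences between groups had a wider error here than for a typical gene.

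The markers bore out the labelled cell type in part. Cd4 read 10.48 to 11.60 and Cd3e 10.15 to 11.14 over all 12 arrays, and 3 erythroid markers averaged 2.50 to 2.64 per group, below every array median. The 13 B cell markers averaged 8.25 to 8.31 on the baseline Cre+ arrays and 8.39 to 8.64 on the baseline Cre- arrays, so transcripts of B cells were present before activation. In baseline Cre+ and Cre- cells, 2 CD8 T cell markers averaged 6.93 and 6.73. There 5 NK cell markers averaged 5.47 and 5.52, and 13 myeloid markers 5.78 and 5.68. These means lay above every array median, but single markers such as S100a8 (3.07 and 2.98) did not. Itgam, the 1 myeloid marker called between the genotypes at baseline, averaged 8.49 in Cre+ and 5.77 in Cre- cells. Arrays of 1 group correlated at 0.9717 or more over all genes, with the lowest values in the activated groups. Ikzf1 read 10.14, 9.93 and 9.89 in activated Cre+ cells, against 10.03, 10.22 and 10.08 in activated Cre- cells, and 10.66, 10.29 and 10.13 in baseline Cre+ cells, against 10.54, 10.52 and 10.54 in baseline Cre- cells. It did not pass between the genotypes in either state. The deleted exons are not named in the labels, so this probe set does not check the genotype.

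Activation raised a subset of the members in both genotypes. After 24 hours, 14 of the 51 rose in Cre+ cells (27.5%, against a background of 10.1% of all genes tested), and 14 rose in Cre- cells (27.5%, against 9.39%). A member rose or fell where limma gave it a Benjamini-Hochberg adjusted p under 0.05, and none fell, where 10.6% of all genes fell in Cre+ cells and 9.10% in Cre- cells. The members read higher than a typical gene. Among genes with a mean reading of at least 5, fitted alone, the ratio of the members' share to that of all genes was lower. This held in both genotypes, while the gap in percentage points was narrower in Cre- cells and wider in Cre+ cells. In that fit 15 of 31 members rose in Cre+ cells (48.4%, against 24.4% of all such genes). In Cre- cells 11 of the 31 rose (35.5%, against 24.6%). The median log2 difference of the members was 0.32 in Cre+ and 0.33 in Cre- cells, beside -0.020 and -0.0047 for all genes. Differences were positive in 44 and in 41 members and ran from -0.49 to 0.98 in Cre+ and from -0.40 to 1.09 in Cre- cells. The 3 activated arrays all lay above the 3 baseline arrays in 25 members in each genotype, against backgrounds of 17.3% and 17.7% of all genes, and below them in 1 member in Cre+ cells, Rps14, and in none in Cre- cells (19.3% and 17.4%). With arrays centred on their medians, 14 and 16 members rose, and the split of all genes in Cre- cells became 2686 higher and 1696 lower, against 2177 and 2110 as deposited. In bulk RNA, fewer cells of a type and less RNA per cell cannot be told apart.

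**Figure D1:**
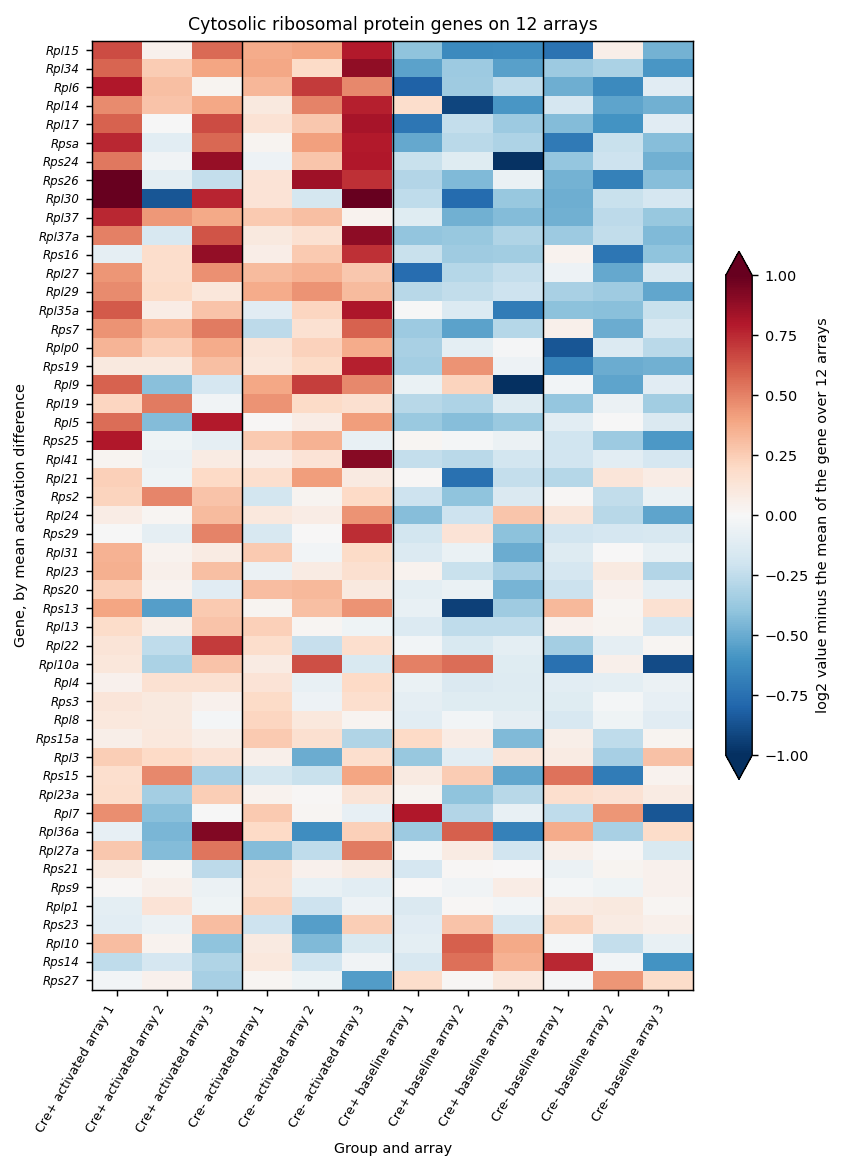
Each cell is the log2 value of 1 gene on 1 array minus that gene's mean over the 12 arrays, with genes down the page by mean activation difference and arrays across by group (colour limits -1 and 1). The upper genes are red on most activated arrays and blue on most baseline arrays, while the lowest rows, such as Rps27 and Rps14, show no such split.

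**Figure D2:**
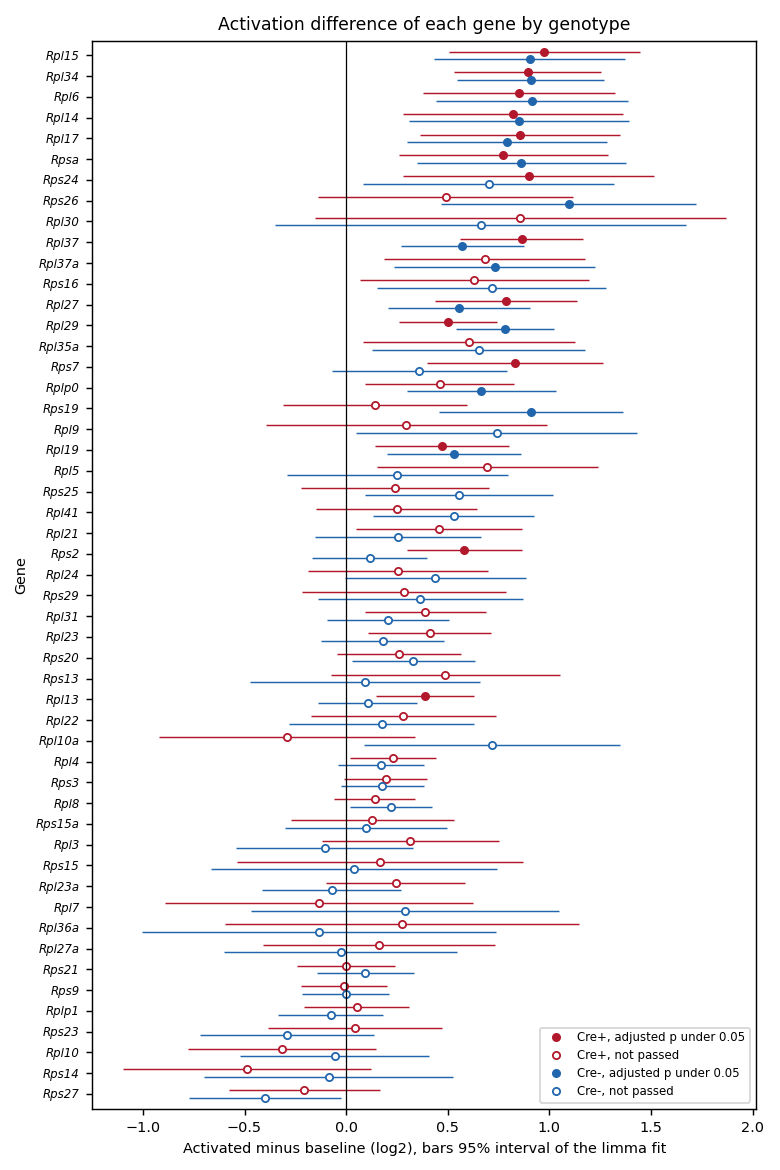
Points are activated minus baseline log2 differences of the 51 genes, red for Cre+ and blue for Cre- cells, with 95% intervals of the limma fit on all 12 arrays and filled symbols where the adjusted p was under 0.05. Filled symbols, 14 per genotype, all lie right of 0.

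Among the large subunit members, 10 of 32 rose in Cre+ cells and 11 of 32 in Cre- cells. Rpl34 read 7.52, 7.19 and 7.33 on the activated Cre+ arrays, against 6.40, 6.58 and 6.39 on the baseline Cre+ arrays. On the Cre- arrays it read 7.32, 7.13 and 7.82 after activation, against 6.57, 6.62 and 6.36 at baseline. All 6 activated readings were above all 6 baseline readings. Rpl34 thus rose by 0.89 in Cre+ cells (SE 0.17, limma adjusted p = 0.0029) and by 0.91 in Cre- cells (SE 0.17, limma adjusted p = 0.00288). Rpl29, a small basic protein and the one bright member that rose, read 10.22, 9.94 and 9.85 in activated Cre+ cells, against 9.47, 9.50 and 9.54 in baseline Cre+ cells. In Cre- cells it read 10.12, 10.20 and 10.06 after activation, against 9.42, 9.39 and 9.22 at baseline. The groups did not overlap in either genotype, at differences of 0.50 (limma adjusted p = 0.00767) and 0.78 (limma adjusted p = 0.0006).

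Rpl15, a core protein of the large subunit that is mutated in some families with Diamond-Blackfan anaemia in humans, read 7.98, 7.37 and 7.89 on the activated Cre+ arrays, against 6.92, 6.69 and 6.70 on the baseline Cre+ arrays. Its Cre- readings were 7.70, 7.72 and 8.12 after activation, against 6.59, 7.39 and 6.85 at baseline. Activated and baseline arrays were apart in both genotypes, but baseline Cre- array 2 came close to the activated level. The increase was 0.98 in Cre+ cells (SE 0.22, limma adjusted p = 0.00766), which is 1.97-fold, and 0.90 in Cre- cells (limma adjusted p = 0.0126). The Cre- call was lost without baseline Cre- array 1 (0.73, limma adjusted p = 0.0586). Rpl6 read 6.02, 5.52 and 5.25 in activated Cre+ cells, against 4.41, 4.87 and 4.97 in baseline Cre+ cells. Activated Cre- cells gave 5.55, 5.92 and 5.70, against 4.73, 4.59 and 5.11 in baseline Cre- cells. It rose by 0.85 in Cre+ cells (limma adjusted p = 0.0159) and by 0.92 in Cre- cells (limma adjusted p = 0.0119). The Rpl6 call was lost in Cre+ cells without baseline Cre+ array 1 (0.68, limma adjusted p = 0.0694) or activated Cre+ array 1 (0.64, limma adjusted p = 0.0683), and in Cre- cells without baseline Cre- array 2 (0.80, limma adjusted p = 0.0514).

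Rpl37, a zinc-binding protein, read 6.53, 6.20 and 6.15 in activated Cre+ cells, against 5.65, 5.29 and 5.34 in baseline Cre+ cells. Its Cre- readings were 6.03, 6.08 and 5.81 after activation, against 5.30, 5.52 and 5.39 at baseline. Every activated array was above every baseline array, at 0.87 in Cre+ cells (SE 0.14, limma adjusted p = 0.00118), the smallest p of the members there, and 0.57 in Cre- cells (limma adjusted p = 0.0136). Rpl27 rose by 0.79 in Cre+ cells (limma adjusted p = 0.00486) and by 0.55 in Cre- cells (limma adjusted p = 0.0322). Rpl17, which lines the tunnel through which the nascent chain leaves, rose by 0.85 and 0.79 (limma adjusted p = 0.0185 and 0.0296). Rpl14 rose by 0.82 and 0.85 (limma adjusted p = 0.0351 and 0.0329), and Rpl19, which takes part in a bridge to the small subunit, by 0.47 and 0.53 (limma adjusted p = 0.0459 and 0.0294).

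Other large subunit members passed in 1 genotype. Rpl13 rose by 0.39 in Cre+ cells (limma adjusted p = 0.0274) and differed by 0.11 in Cre- cells (limma adjusted p = 0.608). Rpl37a differed by 0.68 in Cre+ cells (limma adjusted p = 0.0533) and rose by 0.73 in Cre- cells (limma adjusted p = 0.0437). The values of Rpl37a were thus close on the 2 sides of the threshold, and the difference between the genotypes passed for neither gene. Rplp0, which anchors the stalk that recruits elongation factors, read 6.02, 5.92 and 6.06 in activated Cre+ cells, against 5.36, 5.58 and 5.67 in baseline Cre+ cells. In Cre- cells it read 5.81, 5.91 and 6.06 after activation, against 4.83, 5.54 and 5.42 at baseline. The groups were apart in both genotypes, at 0.46 in Cre+ cells, which did not pass (limma adjusted p = 0.076), and 0.67 in Cre- cells, which did (limma adjusted p = 0.0169). Its stalk partner Rplp1, the brightest member, read 11.52, 11.75 and 11.58 in activated Cre+ cells, against 11.48, 11.63 and 11.59 in baseline Cre+ cells. On Cre- arrays Rplp1 gave 11.84, 11.41 and 11.57 after activation, against 11.70, 11.71 and 11.64 at baseline. The readings overlapped in both genotypes, with intervals of -0.21 to 0.31 in Cre+ and -0.34 to 0.18 in Cre- cells for the log2 difference.

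Among the small subunit members, 4 of 19 rose in Cre+ and 3 of 19 in Cre- cells, and Rpsa rose in both. Rpsa, also known as the laminin receptor precursor, read 6.99, 6.13 and 6.80 in activated Cre+ cells, against 5.72, 5.96 and 5.92 in baseline Cre+ cells, and 6.26, 6.64 and 7.02 in activated Cre- cells, against 5.52, 6.01 and 5.81 in baseline Cre- cells. It rose by 0.77 (limma adjusted p = 0.037) and 0.86 (limma adjusted p = 0.0245). Rps7 read 6.17, 6.05 and 6.24 in activated Cre+ cells, against 5.35, 5.18 and 5.43 in baseline Cre+ cells, a rise of 0.83 (limma adjusted p = 0.0114). Its Cre- readings overlapped, with 5.45, 5.87 and 6.31 after activation, against 5.77, 5.22 and 5.56 at baseline. Rps24, like Rps7 mutated in some human cases of Diamond-Blackfan anaemia, rose by 0.90 in Cre+ cells (limma adjusted p = 0.0426) and differed by 0.70 in Cre- cells (limma adjusted p = 0.115). Rps2, which lies at the entry of the messenger RNA channel, rose by 0.58 in Cre+ cells (limma adjusted p = 0.00785) at readings of 3.02, 3.29 and 3.08, against 2.59, 2.39 and 2.65 at baseline, all below the array medians.

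Rps19 and Rps26, a pair of further Diamond-Blackfan genes, rose in Cre- cells. Rps19 read 6.38, 6.39 and 6.59 in activated Cre+ cells, against 5.95, 6.74 and 6.24 in baseline Cre+ cells, and these arrays overlapped (0.14, limma adjusted p = 0.713). The Cre- arrays read 6.41, 6.48 and 7.07 after activation, against 5.62, 5.79 and 5.81 at baseline, a rise of 0.91 without overlap (SE 0.21, limma adjusted p = 0.00989). The difference between these responses, Cre+ minus Cre-, was -0.77 (SE 0.29) and did not pass (limma adjusted p = 0.984). Rps26 read 3.39, 2.30 and 2.15 in activated Cre+ cells, against 2.10, 1.95 and 2.32 in baseline Cre+ cells, with activated array 1 far above the others and the groups overlapping. In Cre- cells Rps26 read 2.53, 3.24 and 3.12 after activation, against 1.92, 1.71 and 1.97 at baseline, a rise of 1.09 that is the widest of the members there (limma adjusted p = 0.0201). These Rps26 readings lie below the array medians, and the Cre- call was lost without baseline Cre- array 1 or 2 or activated Cre- array 2 or 3 (limma adjusted p = 0.0552, 0.0702, 0.0683 and 0.0604).

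**Figure D3:**
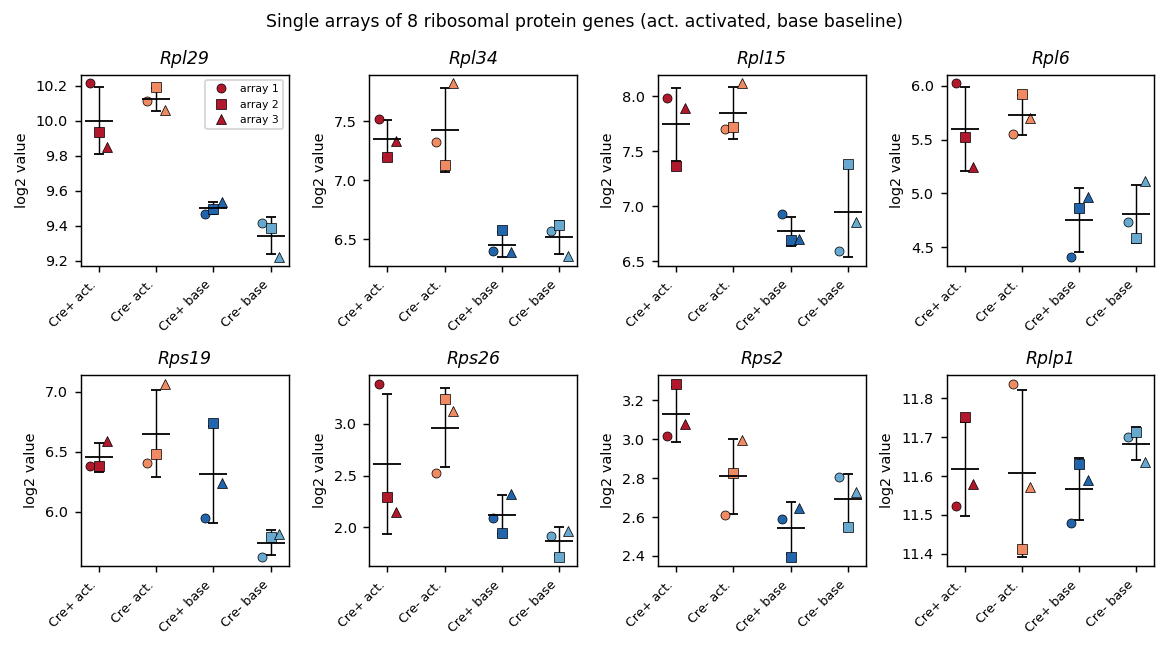
Points are single arrays of 8 genes on the log2 scale, with symbols for array number, horizontal lines for group means and bars for the SD of 3 arrays. For Rpl29, Rpl34, Rpl15 and Rpl6 the activated points lie above the baseline points in both genotypes, for Rps19 and Rps26 in Cre- cells, for Rps2 in Cre+ cells, and for Rplp1 in neither.

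No member fell in the fit of all arrays with equal weight. With array weights Rps23, at the decoding centre, was called lower in Cre- cells (-0.57, limma adjusted p = 0.0155), as were 12.4% of all genes. The lowest differences were those of Rps14, at -0.49 in Cre+ (limma adjusted p = 0.273) and -0.09 in Cre- cells (limma adjusted p = 0.893), and of Rps27, at -0.21 and -0.40 (limma adjusted p = 0.474 and 0.138). Rps14, the small subunit gene lost in the human 5q- syndrome, read 4.34, 4.43 and 4.30 in activated Cre+ cells, against 4.44, 5.15 and 4.94 in baseline Cre+ cells. Rps3, at the messenger RNA entry site, differed by 0.20 and 0.18 and Rps15a by 0.13 and 0.10, and neither passed. Rpl5, which binds the 5S RNA and, when free, the p53 ligase Mdm2, differed by 0.70 in Cre+ (limma adjusted p = 0.0704) and 0.25 in Cre- cells. The X-linked members Rpl10 and Rpl36a differed by -0.32 and 0.28 in Cre+ and by -0.06 and -0.13 in Cre- cells, and none of these passed. Rpl7 (-0.13 in Cre+ and 0.29 in Cre- cells), Rpl3 (0.32 and -0.11) and Rpl22 (0.28 and 0.18), each with a paralog in the genome, did not pass.

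The calls were spread unevenly over the brightness of the probe sets. Of the 32 members at middle readings 12 rose in each genotype, of the 12 below the array medians 1 (Rps2 in Cre+ and Rps26 in Cre- cells), and of the 7 bright members 1 (Rpl29). Calls varied with the reading among all genes too. In the fit of genes with a mean of at least 5, 24.4% were called higher in Cre+ and 24.6% in Cre- cells. Over all genes tested the shares were 10.1% and 9.39%. Shares of all genes within the reading classes used for the members were not computed. The median difference was 0.46 in Cre+ and 0.53 in Cre- cells at middle readings, and 0.14 and 0.17 in the bright members. The bright members had narrow errors: Rps9, at 10.87, 10.91 and 10.80 in activated Cre+ cells, against 10.86, 10.82 and 10.93 in baseline Cre+ cells, differed by -0.01 with an interval of -0.22 to 0.20. Rpl4, at 0.23 in Cre+ and 0.17 in Cre- cells, did not pass (limma adjusted p = 0.122 and 0.271). The part of probe set brightness in which members passed was not tested.

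**Figure D4:**
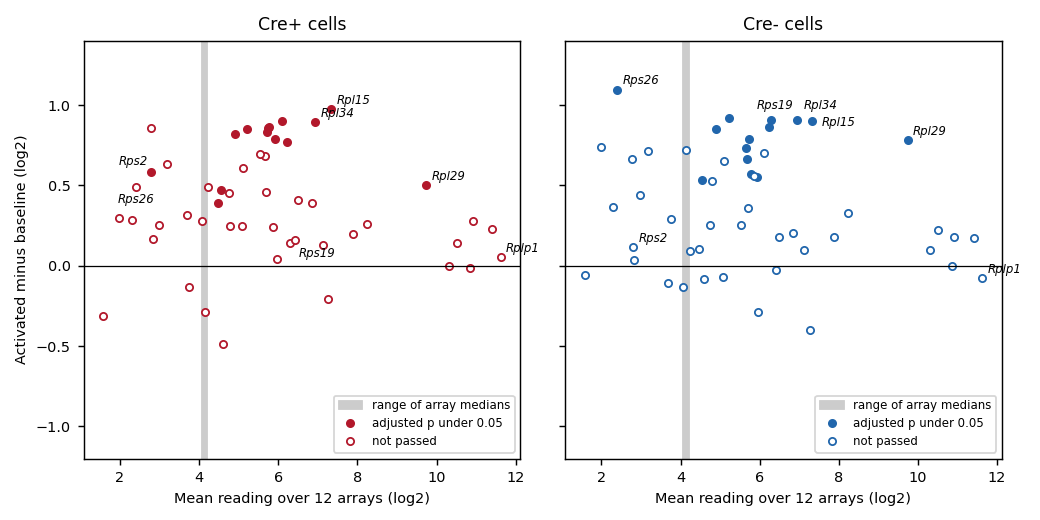
Each point is 1 of the 51 genes, with the mean log2 reading over 12 arrays on the horizontal axis, the activated minus baseline log2 difference on the vertical axis, Cre+ cells left and Cre- cells right, and a grey band over the array medians. Most filled points, which passed, lie between readings of 4 and 8, and none of the genes above 10 exceeds 0.28.

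The number of members that rose depended on single arrays. In Cre+ cells it was 7 without activated Cre+ array 1, 9 without activated Cre+ array 3 or baseline Cre+ array 3, and 19 without activated Cre+ array 2. Of all genes 10.1% were called higher in Cre+ cells in the fit of all arrays, 6.41% without activated Cre+ array 1 and 11.9% without activated Cre+ array 2. The share was 6.73% without activated Cre+ array 3 and 7.28% without baseline Cre+ array 3. With array weights 27 members rose in Cre+ cells, or 52.9%, against 17.2% of all genes, and 20 in Cre- cells, or 39.2%, against 13.1%. In Cre- cells the members that rose numbered 7 without baseline Cre- array 1 or activated Cre- array 3 and 9 without baseline Cre- array 2 or 3, where 6.22% to 7.33% of all genes were called higher. Over all alternative settings that tested them, 7 of the 14 Cre+ calls were kept (Rpl15, Rpl27, Rpl29, Rpl34, Rpl37, Rps2 and Rps7) and 3 of the 14 Cre- calls (Rpl29, Rpl34 and Rps19). Rpl29 and Rpl34 were thus the members called in both genotypes in every such setting. The Cre+ call of Rpl19 was lost in 12 of 21 settings (limma adjusted p up to 0.14), that of Rps24 in 11 of 22 (up to 0.166), and the Cre- call of Rpl37a in 10 of 22 (up to 0.146). Further losses were those of Rpsa (8 of 22 settings in Cre+ and 5 of 22 in Cre- cells), Rpl14 (6 of 21 and 5 of 21), Rpl17 (3 of 22 and 4 of 22), Rpl13 (5 of 21), Rplp0 (3 of 22), Rpl37 in Cre- cells (1 of 22), Rpl27 in Cre- cells (7 of 22) and Rpl19 in Cre- cells (3 of 21), with limma adjusted p of at most 0.149 in any of them. In no setting did one of these differences change sign.

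The members' mean varied among the activated arrays, in an order that other gene lists shared in part. The mean log2 value over the 51 members was 6.13, 5.81 and 6.05 on the activated Cre+ arrays, against 5.65, 5.66 and 5.56 on the baseline Cre+ arrays. In Cre- cells it was 5.93, 5.93 and 6.15 after activation, against 5.65, 5.63 and 5.60 at baseline. Activated Cre+ array 2 was the lowest activated array and activated Cre- array 3 the highest. The mean of 28 cell cycle genes was 6.99, 6.30 and 8.37 on the activated Cre+ arrays and 6.37, 6.37 and 8.76 on the activated Cre- arrays, with 6.13 to 6.33 on all baseline arrays. In activated Cre+ cells the members were thus highest on array 1 and the cell cycle genes on array 3. The 18 genes of the mTOR, Myc and oligopyrimidine pathway averaged 7.94, 7.99 and 7.77 on the activated Cre+ arrays and 7.92, 7.94 and 7.64 on the activated Cre- arrays, lowest on array 3 of each. The 13 B cell markers averaged 6.68, 5.96 and 7.30 on the activated Cre+ arrays and 5.39, 5.78 and 6.60 on the activated Cre- arrays, below every baseline array, and 9 of 13 fell in Cre+ and 12 of 13 in Cre- cells. Of 13 myeloid markers 9 and 10 fell, with medians of -1.38 and -1.63. Markers of the labelled cell type fell as well, 7 of 11 CD4 T cell markers in Cre+ cells and 4 of 11 in Cre- cells, with medians of -0.50 and -0.44. The part of these other cells and of the advance of the cell cycle in the members' rise was not tested. Without the activated arrays numbered 3, which had the highest cell cycle means of their groups, 11 members rose in Cre+ and 9 in Cre- cells, at medians of 0.38 and 0.27. These counts are 21.6% and 17.6% of the members, against 10.6% and 8.43% of all genes in the same fit.

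**Figure D5:**
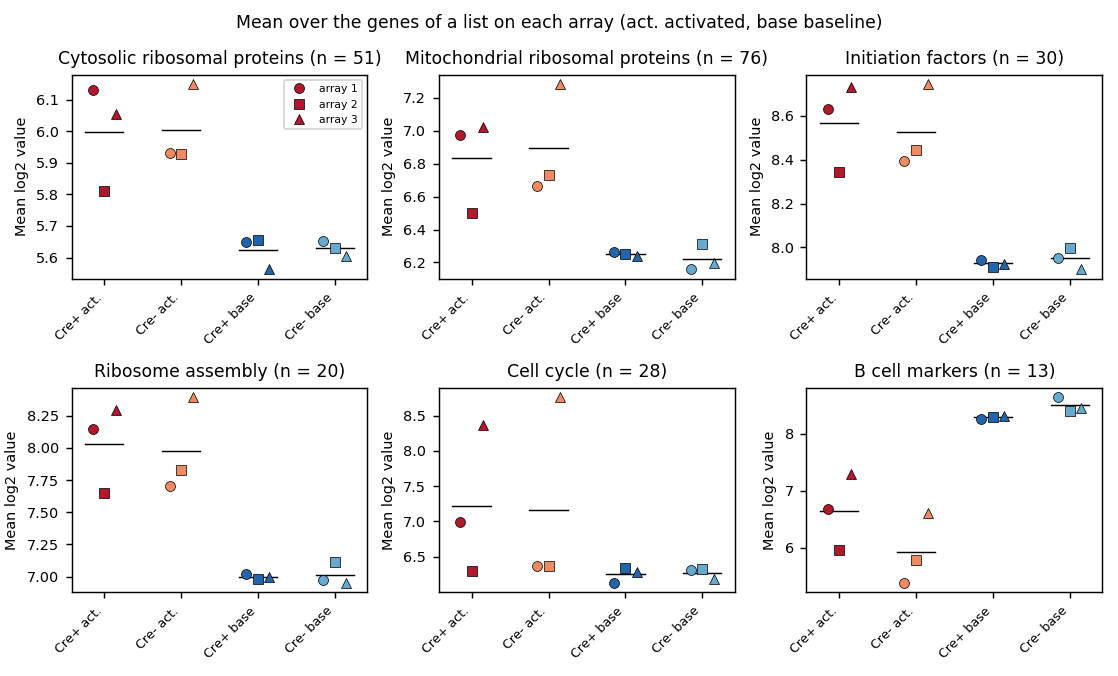
Points are the mean log2 value of a gene list on each array, with symbols for array number and lines for group means, for the cytosolic ribosomal proteins and 5 other lists. The ribosomal protein means of the activated arrays (5.81 to 6.15) lie above all baseline means (5.56 to 5.66), and the B cell markers show the opposite order.

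Genes that build and serve the ribosome rose as well, and the lists were not tested against each other. Beside the counts of these and the following lists, 10.1% of all genes rose in Cre+ and 9.39% in Cre- cells, and 10.6% and 9.10% fell. Among genes with a mean reading of at least 5, fitted alone, 24.4% and 24.6% rose. Of 20 genes for ribosome assembly and ribosomal RNA synthesis, 18 rose in Cre+ and 17 in Cre- cells, with medians of 1.11 and 1.05. Polr1b, a core subunit of RNA polymerase I, rose by 1.56 and 1.53 (limma adjusted p = 0.000747 and 0.000937), and Grwd1, a chaperone of Rpl3, by 1.30 and 1.25 (limma adjusted p = 0.00121 and 0.00171). Pno1, needed for small subunit maturation, rose by 1.92 in Cre+ cells (limma adjusted p = 0.00162) and by 1.68 in Cre- cells (limma adjusted p = 0.00392), and Npm1, nucleophosmin, by 1.28 and 1.41. Of 76 mitochondrial ribosomal protein genes, 36 rose in Cre+ and 41 in Cre- cells and none fell, with medians of 0.57 and 0.62. Mrps18b rose by 1.30 and 1.26 (limma adjusted p = 0.00013 and 0.000178) and Mrps6 by 1.23 and 1.64.

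Of 30 translation initiation factor genes, 19 rose in each genotype and none fell, with medians of 0.65 and 0.61. Eif3c, a core subunit of the eIF3 complex, rose by 1.12 and 0.99 (limma adjusted p = 3.0e-05 and 9.0e-05). Of 10 elongation genes, 5 rose and 1 fell in Cre+ cells and 6 rose in Cre- cells. Eef1a1, the factor that brings aminoacyl tRNA to the ribosome, differed by 0.32 in Cre+ cells (limma adjusted p = 0.342) and rose by 1.01 in Cre- cells (limma adjusted p = 0.00616). Its baseline Cre- readings were scattered, at 4.59, 5.14 and 4.17, and its activated means were 5.49 in Cre+ and 5.64 in Cre- cells. The difference of the responses between the genotypes passed for none of the 10 elongation genes. Of 18 genes of the mTOR, Myc and oligopyrimidine pathway, 8 rose and 3 fell in Cre+ cells and 7 rose and 2 fell in Cre- cells. Larp1 rose by 1.19 and 1.10 (limma adjusted p = 2.3e-05 and 5.0e-05), Myc by 1.98 and 1.93 (limma adjusted p = 9.7e-05 and 0.000131), and Eif4ebp1, the translation repressor that mTOR inactivates, by 2.51 and 2.49.

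Of 7 paralogs of the members, 2 rose in each genotype. Rps27l, the p53-responsive relative of Rps27, read 7.50, 6.87 and 7.62 in activated Cre+ cells, against 5.96, 5.97 and 6.12 in baseline Cre+ cells. On Cre- arrays Rps27l gave 6.79, 6.86 and 7.91 after activation, against 5.78, 6.18 and 5.92 at baseline. It rose by 1.32 and 1.22 (limma adjusted p = 0.00582 and 0.0094), while Rps27 itself stood at -0.21 and -0.40 without passing. Rpl7l1 rose by 0.48 in Cre+ cells (limma adjusted p = 0.0451) and Rpl36al by 0.49 in Cre- cells (limma adjusted p = 0.02), and Rpl3l, Rpl10l, Rpl39l and Rps4l passed in neither. Of 18 ribosomal protein pseudogenes, 1 rose in Cre+ and 3 in Cre- cells, with medians of -0.0095 and 0.15. Fau and Rps3a1, which encode ribosomal proteins under symbols outside the rule, differed by 0.33 and 0.40 in Cre+ and by 0.24 and 0.78 in Cre- cells, and neither passed. Of 6 S6 kinase family genes none rose, and Rps6ka5 fell by 1.19 and 0.92 and Rps6ka3 by 0.51 and 0.51.

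No member was called between the genotypes. In baseline cells, limma called 0 of 51 higher and 0 lower in Cre+ than in Cre- cells, where 0.492% of all genes were higher and 0.0604% lower. After activation it again called 0 and 0, against 0.630% and 0.0992%. At an unadjusted p under 0.05 there were 4 members at baseline and 2 after activation, or 7.84% and 3.92%, against 6.93% and 7.51% of all genes. The median difference, Cre+ minus Cre-, was -0.048 at baseline and 0.003 after activation, beside 0.0018 and -0.014 for all genes. Differences ran from -0.62 to 0.84 at baseline and from -0.52 to 0.32 after activation. The 95% intervals had a median half-width of 0.445 and lay wholly between -1 and 1 in 45 members at baseline and in 48 after activation, but within -0.5 and 0.5 in 18 and 19. For most members the interval therefore did not exclude a genotype difference of more than 0.5 on the log2 scale.

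The members nearest to a call at baseline were Rpl10a and Rps19, higher in Cre+ cells, and Rps13 and Rpl23a, lower. Rpl10a, which forms the L1 stalk where spent tRNA leaves, read 4.65, 4.70 and 4.02 in baseline Cre+ cells, against 3.39, 4.20 and 3.25 in baseline Cre- cells, and the groups overlapped (0.84, SE 0.29, limma adjusted p = 0.431). Rps13 read 4.15, 3.29 and 3.87 in baseline Cre+ cells, against 4.55, 4.25 and 4.38 in baseline Cre- cells, without overlap (-0.62, limma adjusted p = 0.64). The baseline Cre+ arrays lay above the baseline Cre- arrays in 3 members, Rps25, Rpl29 and Rps19, and lay below them in 4, Rplp1, Rpl23a, Rps13 and Rpl5, where all genes gave 8.82% and 7.42%. After activation Rps2 and Rpl37 lay above (2 members, against 5.25% of all genes) and none below (5.51%). Rps2 read 3.02, 3.29 and 3.08 in activated Cre+ cells, against 2.61, 2.82 and 2.99 in activated Cre- cells (0.32, limma adjusted p = 0.553), and Rpl37 differed by 0.32 (limma adjusted p = 0.608).

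With array weights, which give noisier arrays less influence, 3 members were called higher in activated Cre+ than in activated Cre- cells, Rpl30 (1.07, limma adjusted p = 0.0401), Rpl3 (0.57, limma adjusted p = 0.0441) and Rpl37 (0.41, limma adjusted p = 0.038), while the same fit called 5.19% of all genes higher. Rpl30 had the widest spread of the members in both activated groups, with SDs of 1.11 in Cre+ and 0.69 in Cre- cells and readings of 4.04, 1.92 and 3.54 in activated Cre+ cells, against 2.92, 2.60 and 3.92 in activated Cre- cells. B cell markers were also higher in the activated Cre+ arrays, in 13 of 13 with a median of 0.70, without a call, and their part in these values was not tested.

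No member was called for a difference in the response to activation between the genotypes. The limma interaction called 0 of 51 members higher and 0 lower, against 0.00863% and 0% of all genes, and 3 had an unadjusted p under 0.05, Rps19, Rps2 and Rpl10a, or 5.88% of the members against 4.70% of all genes. The median of the members' interaction was 0.018, with intervals of a median half-width of 0.629 and 37 of 51 wholly between -1 and 1. Rpl10a had the widest value, -1.01 (SE 0.41, limma adjusted p = 1), from an activation difference of -0.29 in Cre+ and 0.72 in Cre- cells, and Rps2 differed by 0.47 (limma adjusted p = 0.984). Of the members that rose, 10 of 14 in each genotype were shared: Rpl6, Rpl14, Rpl15, Rpl17, Rpl19, Rpl27, Rpl29, Rpl34, Rpl37 and Rpsa. The other 4 of each genotype passed there and not in the other, and none of these 8 passed the interaction.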

How the data were processed

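RNA of splenic CD4 T cells was read on 12 whole-transcript arrays, 3 for each of 4 groups, which the labels give by genotype and state. The deposited values are log2 expression, 1 per probe set, made by the authors with RMA using affy 1.36.1 in R 2.15.1, per the submitters' processing notes. RMA subtracts background, quantile normalizes the arrays and fits 1 value per probe set, so a change shared by all genes is removed. Not given in the sources used here were the chip definition file and a genome build, and coordinates are those of the RefSeq promoter table (GRCm38.p6).

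Of 25206 probe sets, 23185 were paired with 1 gene by the platform annotation and tested, and 2021 had no listed gene. All 12 arrays entered 1 linear model without covariates, with group means as its coefficients, in limma 3.58.1 under R 4.3.3 (8 residual and 3.55 prior degrees of freedom). Tests were two-sided, p-values were adjusted by Benjamini-Hochberg over the 23185 genes in each of 5 comparisons, and the threshold was 0.05. The number of arrays limits the precision. The model was tested on simulated data.

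The members, the gene lists and the tests were chosen with earlier results of these data known. Named were, per comparison, the members that passed with the 8 largest increases and decreases, or the 4 with the smallest p, together with P stalk, 5S, X-linked, Diamond-Blackfan and paralog-bearing members, Rpsa, Rps3, Rps14 and Rps15a, the 4 members with the widest SD in each activated group, and list genes with the smallest p. Other members were named after their values were seen, among them Rpl4, Rps9, Rps23, Rps25 and further members that passed.

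Same-numbered arrays of the activated groups correlated in their deviations at -0.045, 0.571 and 0.728, and those of the baseline groups at -0.025, 0.137 and 0.149. Activated Cre+ array 2 correlated best with activated Cre- array 1. The main fit did not pair the arrays by number, and whether activated arrays of the same number shared a batch was not tested. The alternatives were array weights, a replicate block, robust moderation with a variance trend, quantile normalization, median centring, scaling to the 75th percentile, a mean of at least 5, all probe sets, only the arrays compared, no activated arrays numbered 3, and each array left out in turn.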

Additional observations from a re-analysis of the deposited data

How the results depend on the processing

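With array weights, 27 members rose with activation in Cre+ cells, 1 fell in Cre- cells, and 3 were higher in activated Cre+ than in activated Cre- cells, with that median at 0.117 and the interaction median at 0.13. Without the activated arrays numbered 3, 9 rose in Cre- cells (17.6%, against 8.43% of all genes). With 1 array left out, the members that rose numbered 7 to 19 in Cre+ and 7 to 15 in Cre- cells, and the medians ran from 0.309 to 0.449 and from 0.268 to 0.368. Of all genes, 6.41% to 12.5% were called higher in Cre+ and 6.22% to 10.5% in Cre- cells in these fits. The genotype median then ran from -0.054 to 0.071 after activation and from -0.064 to -0.01 at baseline, and the interaction median from -0.03 to 0.13. With the replicate number as a block 14 rose in Cre+ cells (27.5%, against 10.5% of all genes), 12 of them shared. In Cre- cells 15 rose (29.4%, against 10.1%), with 14 shared. Rpl19 (limma adjusted p = 0.0503) and Rps24 (limma adjusted p = 0.0631) lost their Cre+ calls. The cause of these shifts was not tested. Under the other settings that tested all 51 members, 12 to 17 rose in Cre+ and 13 to 16 in Cre- cells, and none fell. In these fits 9.73% to 10.9% and 6.94% to 11.6% of all genes were called higher. The fit of genes with a mean of at least 5 tested 31 members, and none fell. There 15 rose in Cre+ cells (48.4%, against 24.4% of all genes) and 11 in Cre- cells (35.5%, against 24.6%). Over the 51 members, 5 comparisons and all alternatives, 5510 values in all, 5356 kept their side of the threshold, 91 lost a call, 63 gained one, 23 of them with array weights, and 0 called values changed sign. Near-identical sequence among ribosomal protein genes and pseudogenes and the dim readings of 12 members limit what single probe sets can show.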

Other observations

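Eef2k, the kinase that slows elongation by phosphorylating the elongation factor eEF2, was the 1 gene of the 10 on the elongation list called between the genotypes. It read 6.66, 6.56 and 6.69 in baseline Cre+ cells, against 5.39, 5.46 and 5.34 in baseline Cre- cells. All baseline Cre+ arrays lay above all baseline Cre- arrays, at 1.24 on the log2 scale (SE 0.14, limma adjusted p = 0.00137). In activated cells it read 6.20, 6.24 and 5.76 in Cre+ cells, against 5.38, 5.64 and 5.73 in Cre- cells, a difference of 0.48 that did not pass (limma adjusted p = 0.22). With activation it fell by 0.57 in Cre+ cells (limma adjusted p = 0.0125) and differed by 0.19 in Cre- cells (limma adjusted p = 0.432). The difference of these responses was -0.76 (SE 0.20) and did not pass (limma adjusted p = 0.577).

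Of 9 genes of the p53 response that ribosomal protein imbalance can engage, 5 rose and 1 fell in Cre+ cells and 4 rose and 1 fell in Cre- cells after activation. Cdkn1a, the inhibitor of cyclin-dependent kinases, rose by 4.55 in Cre+ cells (limma adjusted p = 5.4e-07) and by 3.65 in Cre- cells (limma adjusted p = 3.2e-06). Sesn2, a stress-induced inhibitor of mTOR signalling, rose by 2.20 and 1.70, while its relative Sesn1 fell by 1.74 and 1.56. Of 11 quiescence and naive genes 5 fell in each genotype, among them Il7r, the interleukin 7 receptor, by 2.03 and 2.44.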
